A study of Ovis aries with 8 samples.

Results

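The liver releases hormones and binding proteins that tell other tissues about nutrient supply and stress, and 9 genes of such secreted regulators were followed here: FGF21, ANGPTL8, INHBA, INHBC, INHBE, FST, GDF15, LEAP2 and LECT2. They were chosen by name, as the rows of the deposited table that carry these symbols, and all 9 were found among its 27729 genes. Poly(A) RNA was sequenced from the liver of 8 lambs, 4 labelled ADL and 4 labelled RES. Neither name is spelled out in the labels, and the series title concerns restricted feeding of suckling lambs that were fattened later. The labels give the same slaughter weight, 27 kg, for all 8 lambs and no breed, sex, age or time since the last meal. Every library has its own lamb, and the errors given are therefore between animals.

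As background, FGF21 is a hormone of fasting and of amino acid shortage, made by hepatocytes under the control of PPARA and ATF4. ANGPTL8 is its counterpart of the fed state: it is induced by insulin and feeding and restrains lipoprotein lipase, the enzyme that unloads triglyceride from plasma lipoproteins. INHBA, INHBC and INHBE encode beta subunits of activins and inhibins, of which the C and E forms are made mostly in liver, and FST encodes follistatin, which binds and blocks activins. GDF15 is a stress hormone sensed in the hindbrain through GFRAL. LEAP2 opposes ghrelin at the ghrelin receptor GHSR, and LECT2 is a hepatocyte product first described as attracting leukocytes. These roles were worked out mainly in mice and humans.

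The libraries held 14514084 to 16182407 reads counted to genes. Levels are given as TPM, a share of transcripts corrected for gene length that sums to the same total in each library. The hepatocyte markers, 10 of 10 found and led by albumin, summed to 177256 to 196544 TPM in ADL and 135745 to 179057 TPM in RES, which fits the label of liver. Markers of other cells were far lower: 9 macrophage genes summed to 632 to 1150 TPM, 11 stellate cell genes to 272 to 407 TPM, 10 endothelial genes to 280 to 311 TPM, 8 bile duct genes to 18.9 to 31.9 TPM and 10 lymphocyte genes to 32.1 to 51.9 TPM over the 8 lambs. In bulk liver, fewer cells of a type and less RNA per cell cannot be told apart.

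None of the 9 regulators was too low to measure: all reached the minimum for testing, a mean of 1 TPM, which 13437 genes met. By mean TPM they fell into tiers, though below LECT2 and LEAP2 the values of single lambs overlapped between tiers. LECT2 (mean 1873 TPM over the 8 lambs) and LEAP2 (1423 TPM) ranked 73 and 100 among the tested genes by mean TPM and together made 95.2 to 98.7% of the summed TPM of the 9. LECT2 stood above LEAP2 in 8 of 8 lambs. INHBC (53.5 TPM) followed, above its neighbour gene INHBE in 8 of 8 lambs. INHBE (15.2 TPM), ANGPTL8 (14.02 TPM) and FGF21 (9.39 TPM) overlapped one another, and so did GDF15 (2.49 TPM), FST (2.32 TPM) and INHBA (2.06 TPM). The lowest tier rested on few reads, 11 to 46 per lamb for FST, 11 to 49 for GDF15 and 32 to 284 for INHBA. For FGF21 a single library held only 4 reads.

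**Figure D1:**
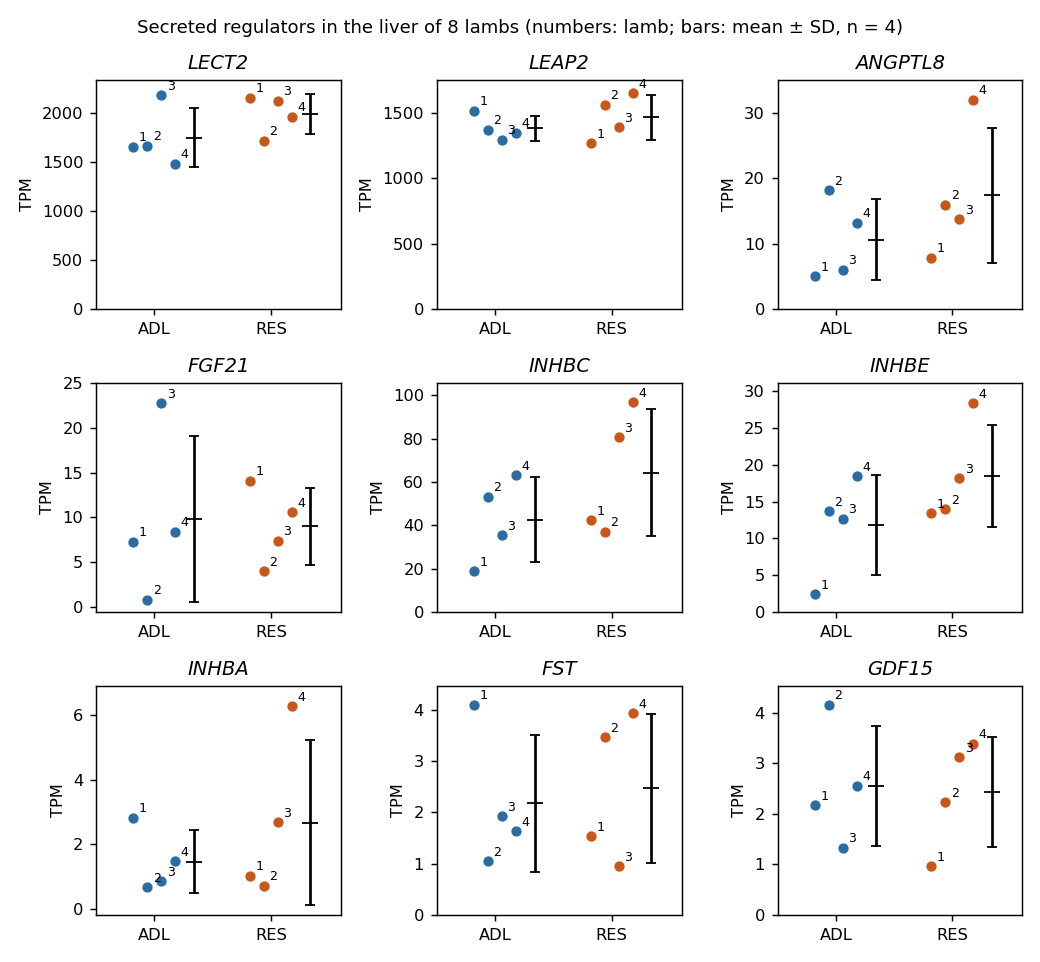
TPM of each of the 9 genes (vertical axes, linear, each with its own range) in the 4 ADL and 4 RES lambs; points are lambs with their number, and bars beside them are the mean ± SD, n = 4. The groups overlap in every panel, LECT2 and LEAP2 stay between 1264 and 2187 TPM, and FGF21 runs from 0.744 to 22.8 TPM within ADL alone.

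Setting RES against ADL asks whether the liver's output of these regulators differed between the groups at equal slaughter weight. No difference larger than the spread between lambs was found for any of the 9. In the limma fit to log2(TPM + 1) over all tested genes, 0 of the 9 passed an adjusted p of 0.05, where 0% of all tested genes did and the smallest adjusted p of any gene was 0.395. At an unadjusted p under 0.05 limma also had 0 of the 9, against 11.9% of the tested genes. In 0 of the 9 did the groups fail to overlap in TPM, against 7.39% of tested genes. The difference was above 0 for 8 of the 9, where 71.0% of tested genes lay above 0. After division by size factors, which moved the median of all tested genes from 0.095 to 0.0056 log2 units, it was above 0 for 7 of the 9, against 51.6% of tested genes. The median difference of the 9 was 0.30, or 0.20 after scaling. Scaled in this way, limma's unadjusted p was under 0.05 on the higher side for 0 of the 9 and 3.40% of tested genes, and on the lower side for 0 of the 9 and 4.25%.

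**Figure D2:**
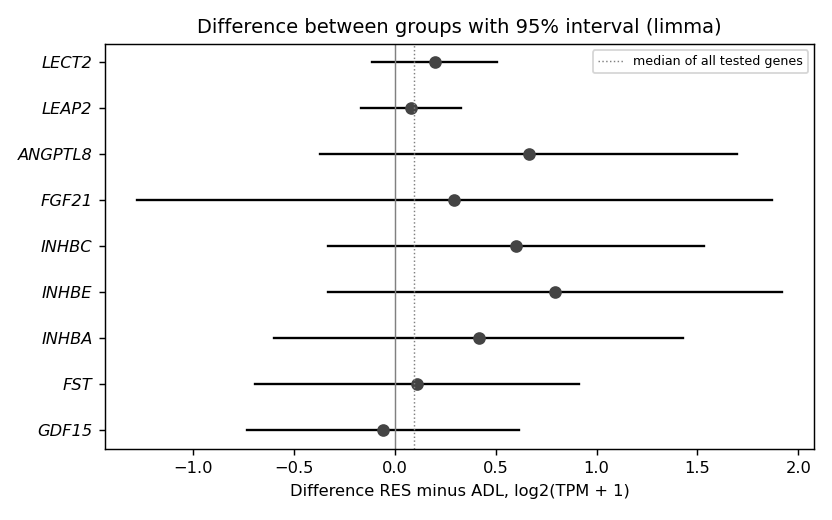
Difference RES minus ADL on the log2(TPM + 1) scale (horizontal axis) for each gene, with the point at limma's estimate and the line its 95% interval; the dotted line is the median of all tested genes, 0.095. All 9 intervals contain 0, and those of LEAP2 and LECT2 are the shortest.

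FGF21 showed the largest spread of the 9. The deposited annotation, whose genome build was not named, places it on chromosome 14 from 54302413 to 54304086 on the plus strand, with 4 exons and a transcript length of 696 bases. In ADL it stood at 7.24, 0.744, 22.8 and 8.39 TPM in lambs 1 to 4, and in RES at 14.1, 3.98, 7.39 and 10.5 TPM. The lowest and the highest of the 8 lambs were both in ADL, and the RES lambs lay between them. The means were 9.78 ± 9.28 TPM in ADL and 8.997 ± 4.32 TPM in RES (errors of TPM means are SD, n = 4, throughout). The log2 difference was 0.30 ± 0.70 (limma moderated SE, adjusted p = 0.871), so the mean TPM and the mean log2 value had opposite signs. Without ADL lamb 2, the library with 4 FGF21 reads, the difference was -0.41. The 95% interval, from 0.413-fold to 3.65-fold on the TPM + 1 scale, leaves a wide range of differences undetectable with 4 lambs a group.

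No gene around FGF21 passed the limma threshold. Of the 14 listed regulators and receptors of FGF21, 13 were tested, 8 higher and 5 lower in RES, where 71.0% of tested genes were higher. At an unadjusted p under 0.05 was 1 gene on the higher side, against 10.4% of tested genes, and 0 on the lower side, against 1.50%. That gene was NR1D1, a clock repressor, at 11.05 ± 2.16 TPM in ADL, against 14.6 ± 2.52 TPM in RES (limma adjusted p = 0.414). After size-factor scaling 3 of the 13 were higher and 10 lower, where 51.6% of tested genes were higher. At an unadjusted p under 0.05 were 0 on the higher side and 1, KLB, on the lower side, against 3.40% and 4.25% of tested genes. Limma's unadjusted p was then 0.044 for KLB and 0.095 for NR1D1. KLB, the co-receptor that FGF21 needs, stood at 55.1 ± 11.95 TPM in ADL, against 43.6 ± 8.16 TPM in RES (log2 difference -0.33 ± 0.18, limma adjusted p = 0.484). Over the 8 lambs KLB averaged 49.4 TPM, against 9.39 TPM for the hormone transcript itself. PPARA, the fasting-activated receptor that drives FGF21, stood at 27.5 ± 1.89 and 30.8 ± 4.97 TPM. Receptor levels were 5.91 ± 0.648 and 6.12 ± 0.668 TPM for FGFR1, 9.58 ± 0.393 and 9.42 ± 1.47 TPM for FGFR4, and 13.8 ± 0.406 and 13.02 ± 2.12 TPM for FGFR3, in ADL and RES.

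GDF15 (chromosome 5, 4508047 to 4510625, minus strand, 2 exons) was low and the groups overlapped. It stood at 2.17, 4.16, 1.33 and 2.55 TPM in ADL lambs 1 to 4 and at 0.967, 2.23, 3.12 and 3.39 TPM in RES lambs 1 to 4. The highest lamb was ADL lamb 2 and the lowest RES lamb 1. Means were 2.55 ± 1.19 and 2.42 ± 1.09 TPM, with a log2 difference of -0.060 ± 0.30 (limma adjusted p = 0.945). The sign turned without ADL lamb 2 (0.14) or RES lamb 1 (0.19). Its receptor gene GFRAL had 0 reads in all 8 livers.

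The integrated stress response, through which ATF4 can raise both FGF21 and GDF15, was listed with 18 genes, of which 15 were tested. Of these, 11 were higher and 4 lower in RES, 2 with an unadjusted p under 0.05 on the higher side and 0 called by limma after adjustment. Of all tested genes 71.0% were higher and 10.4% had such a p on that side. After size-factor scaling 7 of the 15 were higher and 8 lower, where 51.6% of tested genes were higher. At an unadjusted p under 0.05 there were again 2 on the higher side and 0 on the lower, against 3.40% and 4.25% of tested genes. The 2 were ATF3, a stress transcription factor, at 2.03 ± 0.471 TPM in ADL, against 3.48 ± 0.554 TPM in RES, and PPP1R15A, which restores translation after stress, at 10.7 ± 1.39 and 15.2 ± 2.97 TPM. For both, the 4 RES lambs lay above the 4 ADL lambs, where 7.39% of tested genes had groups that did not overlap. Limma's adjusted p was 0.395 for both, and its unadjusted p after scaling was 0.0062 for ATF3 and 0.028 for PPP1R15A. TRIB3 stood at 4.02 ± 1.16 and 5.18 ± 1.01 TPM and VLDLR at 2.11 ± 0.835 and 3.71 ± 1.75 TPM. In the list of p53 and stress regulators of GDF15, 10 of 12 genes were tested and 1 had an unadjusted p under 0.05, the cell cycle inhibitor CDKN1A (8.58 ± 1.92 TPM in ADL, 11.9 ± 2.44 TPM in RES, limma adjusted p = 0.411), against 10.4% of tested genes on that side. After size-factor scaling its limma unadjusted p was 0.081, and the 1 gene of the list under 0.05 was MMP14, a matrix protease, lower in RES (13.6 ± 1.59 and 11.6 ± 0.692 TPM, limma unadjusted p = 0.013), against 4.25% of tested genes on the lower side. MMP14, MDM2 and FURIN, a convertase that cleaves GDF15 and activin precursors, had limma adjusted p of 0.425, 0.595 and 0.603.

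ANGPTL8 stood at 5.06, 18.2, 6.05 and 13.2 TPM in ADL lambs 1 to 4 and at 7.87, 16.0, 13.8 and 32.0 TPM in RES lambs 1 to 4. RES lamb 4 was the highest of all, and the other 3 RES lambs lay within the ADL range. The means were 10.6 ± 6.22 and 17.4 ± 10.3 TPM, with a log2 difference of 0.66 ± 0.46 (limma adjusted p = 0.552). It was 0.33 without RES lamb 4 and 0.40 without ADL lamb 1. ANGPTL8 is annotated on chromosome 5 from 13258531 to 13261639 on the plus strand, inside the span of DOCK6 on the minus strand (13232029 to 13271909). The strand setting of the counting was not given in the sources used here. Reads of the 2 genes may therefore not be separated. DOCK6 averaged 4.46 ± 0.621 TPM in ADL against 6.78 ± 3.33 TPM in RES, and it too was highest in RES lamb 4, at 11.7 TPM. Over the 8 lambs Pearson's r of DOCK6 with ANGPTL8 was 0.84 on the log2 scale; the part of shared reads in it was not tested.

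Of 15 genes listed around ANGPTL8 and lipoprotein lipase, 13 were tested, 7 higher and 6 lower in RES, where 71.0% of tested genes were higher. None passed limma's adjusted threshold, and 1, SREBF1, had an unadjusted p under 0.05 on the higher side, against 10.4% of tested genes. After size-factor scaling 0 genes had such a p on the higher side and 1, APOC2, did on the lower side (limma unadjusted p = 0.019, and 0.070 for SREBF1), against 3.40% and 4.25% of tested genes. SREBF1, which drives fatty acid synthesis in the fed state, stood at 10.95 ± 3.95 TPM in ADL, against 19.7 ± 9.06 TPM in RES (log2 difference 0.77 ± 0.34, limma adjusted p = 0.417). LPL itself stood at 2.39 ± 0.658 and 4.82 ± 2.57 TPM, its activator APOC2 at 1291 ± 89.0 and 1067 ± 191 TPM, and its inhibitor APOC3 at 5653 ± 508 and 4634 ± 1133 TPM. ANGPTL4, the fasting-induced relative of ANGPTL8, stood at 33.2 ± 18.7 and 41.6 ± 34.3 TPM.

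The activin genes INHBC and INHBE adjoin on chromosome 3, on the same strand and 2272 bases apart, at 161706326 to 161719318 and 161700591 to 161704054. INHBC stood at 18.9, 53.1, 35.5 and 63.1 TPM in ADL lambs 1 to 4 and at 42.5, 37.1, 80.8 and 97.0 TPM in RES lambs 1 to 4. INHBE stood at 2.43, 13.7, 12.7 and 18.4 TPM in ADL and at 13.4, 13.9, 18.2 and 28.4 TPM in RES. For both genes ADL lamb 1 was the lowest of the 8 and RES lamb 4 the highest, and the groups overlapped. The log2 difference was 0.60 ± 0.41 for INHBC (means 42.6 ± 19.6 and 64.3 ± 29.2 TPM, limma adjusted p = 0.551) and 0.80 ± 0.50 for INHBE (11.8 ± 6.74 and 18.5 ± 6.93 TPM, limma adjusted p = 0.517). The INHBE difference was 0.25 without ADL lamb 1. For INHBC it was 0.27 without that lamb. The ratio of INHBC to INHBE lay between 2.66 and 4.44 in 7 lambs and at 7.75 in ADL lamb 1.

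INHBA, the subunit of activin A (chromosome 4, 79315141 to 79333432, plus strand), stood at 2.82, 0.673, 0.851 and 1.48 TPM in ADL lambs 1 to 4 and at 1.02, 0.715, 2.67 and 6.27 TPM in RES lambs 1 to 4. Its highest value was again in RES lamb 4, while ADL lamb 1, lowest for INHBC and INHBE, was the second highest lamb here. The log2 difference was 0.41 ± 0.45 (means 1.46 ± 0.973 and 2.67 ± 2.55 TPM, limma adjusted p = 0.704), and without RES lamb 4 it was 0.005. FST (chromosome 16, 25626176 to 25631520, minus strand) stood at 4.09, 1.04, 1.92 and 1.63 TPM in ADL and at 1.53, 3.47, 0.950 and 3.93 TPM in RES, with means of 2.17 ± 1.33 and 2.47 ± 1.45 TPM. Lambs with high FST occurred in both groups, and the log2 difference of 0.11 ± 0.36 (limma adjusted p = 0.909) was negative with 1 lamb left out in 3 cases, ADL lamb 2 (-0.073), RES lamb 2 (-0.046) and RES lamb 4 (-0.093). The summed TPM of the 4 inhibin beta genes exceeded that of FST in every lamb, from 5.97 times in ADL lamb 1 to 107 times in RES lamb 3. INHBC was the largest part of that sum in every lamb. INHBA alone lay below FST in ADL lambs 1 to 4 and RES lambs 1 and 2, and above it in RES lambs 3 and 4.

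Among the other subunits, INHBB had 0 to 17 reads per lamb and INHA at most 5, both under the minimum for testing. FSTL3, a second activin-binding protein, stood at 2.71 ± 1.73 and 2.11 ± 1.27 TPM, and FSTL1, a secreted relative, at 44.1 ± 6.20 and 57.3 ± 21.9 TPM. Of the 22 genes listed around activin signalling, INHA, INHBB, FSTL1 and FSTL3 among them, 17 were tested, 14 higher and 3 lower in RES. Of all tested genes 71.0% were higher. Limma called 0 of the 17, and 3 had an unadjusted p under 0.05 on the higher side, against 10.4% of tested genes. They were the convertase gene PCSK5 (1.61 ± 0.243 and 2.39 ± 0.582 TPM), the type II activin receptor ACVR2A (6.15 ± 0.339 and 7.22 ± 0.542 TPM) and the signal transducer SMAD2 (4.96 ± 0.714 and 6.12 ± 0.614 TPM). Their limma adjusted p were 0.403, 0.416 and 0.417. SMAD7, an inhibitor induced by the pathway, stood at 3.92 ± 0.706 and 4.95 ± 0.764 TPM, and the receptor ACVR2B at 0.502 ± 0.229 and 0.517 ± 0.214 TPM, under the minimum. After size-factor scaling 10 of the 17 were higher and 7 lower, with 1 at an unadjusted p under 0.05 on each side, where 51.6% of tested genes were higher and 3.40% and 4.25% had such a p on the higher and lower side.

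LEAP2 and LECT2 were the steady members, both on chromosome 5, LEAP2 from 41777867 to 41779368 on the plus strand and LECT2 from 44678726 to 44690919 on the minus strand. LEAP2 stood at 1515, 1369, 1293 and 1347 TPM in ADL lambs 1 to 4 and at 1264, 1562, 1387 and 1648 TPM in RES lambs 1 to 4. RES held both the lowest and the highest lamb. The means were 1381 ± 94.6 and 1465 ± 173 TPM, with a log2 difference of 0.080 ± 0.11 (limma adjusted p = 0.766). It was -0.023 after size-factor scaling, so its sign depends on that setting. Its 95% interval ran from 0.890-fold to 1.26-fold, much narrower than that of FGF21.

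LECT2 stood at 1659, 1672, 2187 and 1488 TPM in ADL lambs 1 to 4 and at 2161, 1722, 2128 and 1968 TPM in RES lambs 1 to 4. The highest lamb was in ADL and all 4 RES lambs lay above 3 of the 4 ADL lambs. Means were 1751 ± 302 and 1995 ± 200 TPM, with a log2 difference of 0.20 ± 0.14 (limma adjusted p = 0.555) and an interval from 0.924-fold to 1.42-fold. After size-factor scaling the difference was 0.094.

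Around these 2 peptides, the ghrelin gene GHRL had 0 reads in all lambs and the receptor GHSR stood at 0.181 ± 0.120 and 0.152 ± 0.0563 TPM. Hepcidin (HAMP), the iron hormone that shares with LEAP2 the name of liver-expressed antimicrobial peptide, varied far more than LEAP2, from 20.5 to 411 TPM in ADL, and in RES from 105 to 484 TPM (log2 difference 1.27 ± 0.93, limma adjusted p = 0.571). The 17 genes of the bone morphogenetic protein and hepcidin pathway gave 16 tested, 12 higher and 4 lower, with 0 called by limma. Of all tested genes 71.0% were higher. The receptor BMPR2 (14.6 ± 2.19 and 19.7 ± 4.33 TPM) was the 1 at an unadjusted p under 0.05, against 10.4% of tested genes on the higher side. After size-factor scaling 10 were higher and 6 lower, with 0 at such a p (limma unadjusted p = 0.083 for BMPR2). Of all tested genes 51.6% were then higher. MET and the endothelial receptor TIE1, both known to bind LECT2, stood at 19.3 ± 1.53 and 23.6 ± 4.67 TPM and at 6.43 ± 1.10 and 6.09 ± 0.862 TPM (limma adjusted p = 0.460 and 0.861). TEK, the relative with which TIE1 pairs, stood at 9.42 ± 0.724 and 10.8 ± 0.879 TPM. Of 16 tested genes among the LECT2 receptors and beta-catenin targets, 6 were higher and 10 lower in RES and limma called 0. After scaling 5 were higher and 11 lower, with 0 at an unadjusted p under 0.05. The shares of all tested genes that were higher were 71.0% and, after scaling, 51.6%. CTNNB1, beta-catenin itself, was the 1 with an unadjusted p under 0.05 before scaling, against 10.4% of tested genes on the higher side. It stood at 64.6 ± 1.07 and 73.7 ± 1.08 TPM (log2 difference 0.19 ± 0.065, limma adjusted p = 0.395). After scaling its difference was 0.085 (limma unadjusted p = 0.256).

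Tested singly on TPM with an exact two-sided permutation test over 70 assignments of lambs, whose smallest possible p is 0.0286, the 9 genes gave p of 0.943 for FGF21, 0.314 for ANGPTL8, 0.514 for INHBA, 0.257 for INHBC, 0.229 for INHBE, 0.943 for FST, 0.886 for GDF15, 0.400 for LEAP2 and 0.229 for LECT2. In the authors' deposited table, 13 of 5627 genes with an adjusted p lie under 0.05 (0.231%), and 0 of the 5 members that have one do. The authors' deposited table gives adjusted p of 0.779 for ANGPTL8, 0.780 for INHBC, 0.807 for INHBE, 0.973 for LEAP2 and 0.905 for LECT2. FGF21, INHBA, FST and GDF15 have none in the authors' deposited table, where no gene with a mean normalized count below 278.3 has one. Their unadjusted p in the authors' deposited table are 0.770, 0.346, 0.892 and 0.703.

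For 7 of the 9 genes, all but LEAP2 and LECT2, levels varied more between lambs of the same group than for most tested genes. The pooled SD within groups on the log2(TPM + 1) scale was 1.21 for FGF21, 0.86 for INHBE, 0.79 for ANGPTL8, 0.77 for INHBA, 0.71 for INHBC, 0.60 for FST and 0.50 for GDF15, against a median of 0.18 over all tested genes. Among tested genes these SDs lay at percentiles from 94.2 (GDF15) to 99.5 (FGF21), while LECT2 (0.20) and LEAP2 (0.14) lay at 56.2 and 29.9. Set beside the 500 genes nearest in level, the 7 still lay at percentiles from 92.8 (GDF15) to 99.4 (FGF21). Other secreted liver products, chosen after their values were seen, also varied widely, with SDs of 2.49 for ORM1, 1.62 for HAMP, 1.00 for IGFBP1 and 0.94 for ANGPTL4, while AHSG (0.31), SELENOP (0.26) and RBP4 (0.20) varied less. These are descriptions of named genes, with no test. Counting noise alone would give a coefficient of variation of 13.9% for FGF21, 19.3% for FST and 18.4% for GDF15 at their mean read numbers. The coefficients measured within ADL were 94.9, 61.3 and 46.5%, and within RES 48.0, 58.7 and 45.0%, in the same order.

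**Figure D3:**
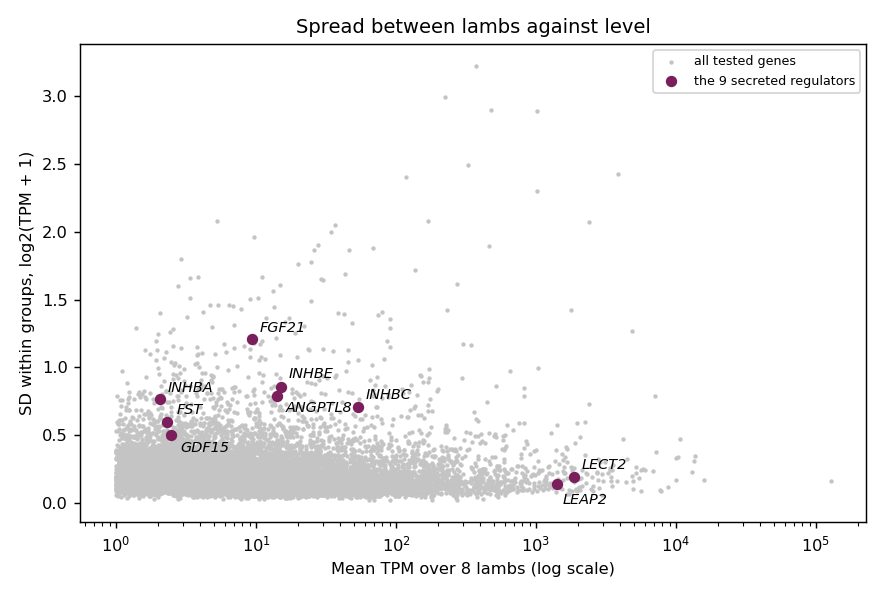
Pooled SD within groups on the log2(TPM + 1) scale (vertical axis) against mean TPM over the 8 lambs (horizontal axis, log scale) for the 13437 tested genes in grey and the 9 regulators in purple. FGF21 at 1.21 is the highest of the 9, and LEAP2 and LECT2 lie within the bulk of genes.

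The variable genes did not share 1 order of lambs. RES lamb 4 was highest for 5 of the 9 (ANGPTL8, INHBA, INHBC, INHBE and LEAP2), and it was also the highest lamb for 28.2% of all tested genes. ADL lamb 1 was lowest for 3 of the 9 (ANGPTL8, INHBC and INHBE) and for 20.9% of tested genes. Over the 36 pairs of members, correlations of log2(TPM + 1) across the 8 lambs are given as descriptions with no test. INHBC and INHBE were the most alike, with Pearson's r of 0.91 and Spearman's rho of 0.90, r of 0.88 without the 2 lambs farthest from the median of INHBC, and 0.89 after centring each group. INHBE ranked 61 among 13436 genes by its r with INHBC. INHBC with ANGPTL8 gave r of 0.81 and rho of 0.74, but r of 0.47 without the 2 lambs farthest out in ANGPTL8, so that likeness rests on them. FGF21 and GDF15, which share ATF4 as a regulator, ran in opposite directions with r of -0.71 and rho of -0.55, and r of -0.36 without the 2 lambs farthest out in FGF21.

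**Figure D4:**
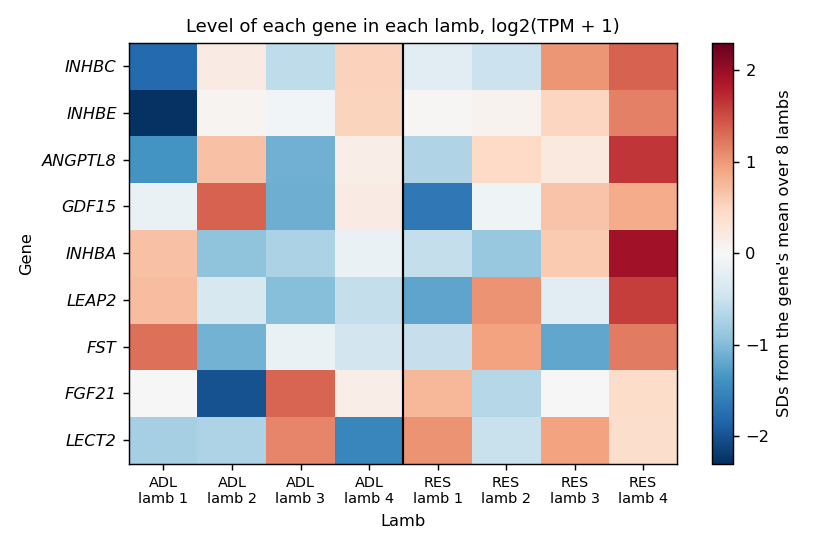
Level of each of the 9 genes (rows) in each lamb (columns; ADL left of the line, RES right), as SDs of log2(TPM + 1) from the gene's mean over the 8 lambs. RES lamb 4 is the highest lamb for 5 genes and ADL lamb 1 the lowest for 3, while FGF21 and LECT2 follow other orders.

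Genes known to respond to feeding are set beside ANGPTL8 and FGF21 here, as descriptions over the same 8 libraries. Among the 13 tested genes listed with ANGPTL8, r over the 8 lambs ran from -0.93 (APOA5, an activator of lipoprotein lipase) to 0.92 (SREBF1). SREBF1 stood at 5.86, 14.5, 9.83 and 13.6 TPM in ADL lambs 1 to 4 and at 12.4, 21.2, 13.4 and 32.0 TPM in RES lambs 1 to 4. Its lowest and highest lambs were those of ANGPTL8, rho was 0.95, and r was 0.76 without the 2 lambs farthest out in ANGPTL8 and 0.92 after centring each group. LPL gave r of 0.86 with ANGPTL8, and ANGPTL4, its fasting-induced relative, gave -0.23. IGFBP1, which insulin represses and fasting raises, was set beside the 9 after its values were seen. It stood at 1434, 291, 1932 and 630 TPM in ADL lambs 1 to 4 and at 1581, 933, 485 and 918 TPM in RES lambs 1 to 4. ADL lamb 3 was highest and ADL lamb 2 lowest for IGFBP1 and FGF21 alike (r = 0.81, rho = 0.64, n = 8 lambs, and r = 0.31 without these 2 lambs, on which the likeness rests). Among the 27 tested genes listed with FGF21, its r ran from -0.33 to 0.69, with 0.22 for PPARA and 0.16 for ATF4. With ANGPTL8 the r of IGFBP1 was -0.62 (rho -0.67) and with GDF15 -0.85 (rho -0.90). CEBPB, a stress and fasting transcription factor, gave r of -0.91 with GDF15, the lowest of the 22 tested genes listed with it. The time since feeding is not in the labels, and its part in these values was not tested.

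**Figure D5:**
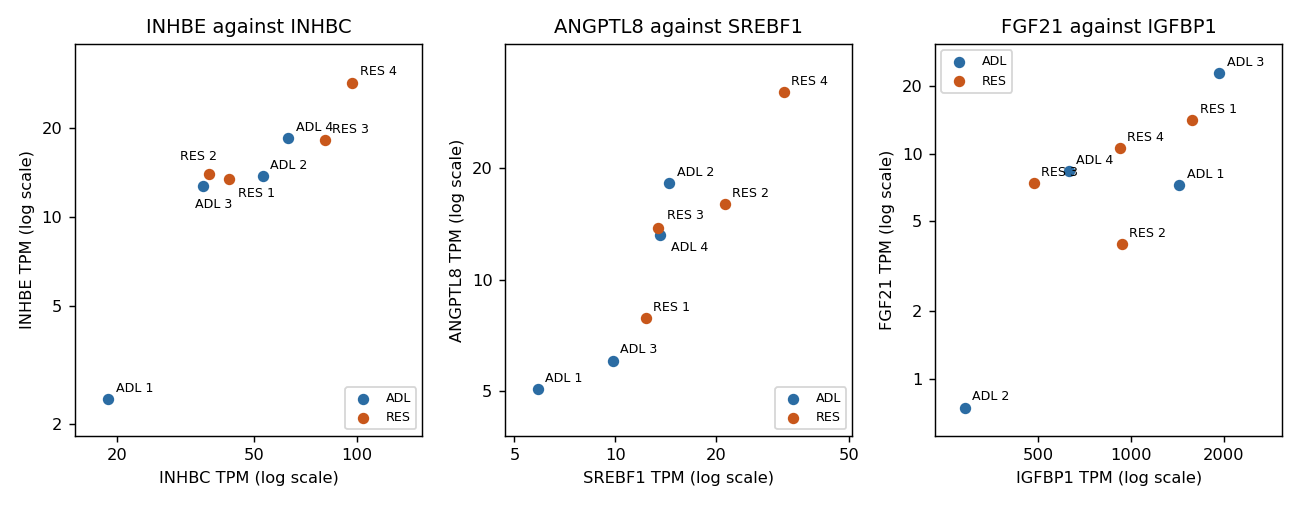
TPM per lamb (both axes log scale; blue ADL, orange RES) for INHBE against INHBC, ANGPTL8 against SREBF1, and FGF21 against IGFBP1, with r over the 8 lambs of 0.91, 0.92 and 0.81 on log2(TPM + 1). Lambs of both groups lie along each trend.

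Other liver-made secreted regulators gave no limma call either. Of 39 listed, 32 were tested, 16 higher and 16 lower in RES, where 71.0% of tested genes were higher, and 0 were called. At an unadjusted p under 0.05 were 2 on the higher and 1 on the lower side, against 10.4% and 1.50% of tested genes. After size-factor scaling 13 were higher and 19 lower, where 51.6% of tested genes were higher. Again 2 and 1 had such a p, against 3.40% and 4.25%. The 1 on the lower side, before and after scaling, was APOM, a carrier of sphingosine 1-phosphate on lipoproteins. It stood at 121 ± 10.6 and 96.1 ± 9.45 TPM (limma adjusted p = 0.395). Its 4 RES lambs lay below the 4 ADL lambs, where 7.39% of tested genes had groups that did not overlap. Among the higher was the acute phase protein gene ORM1. ORM1 stood at 3.46, 52.3, 4.19 and 38.4 TPM in ADL lambs 1 to 4 and at 361, 2006, 133 and 13.5 TPM in RES lambs 1 to 4, with the groups overlapping through RES lamb 4 (limma adjusted p = 0.408). The abundant hepatokines fetuin-A (AHSG, 14677 ± 1885 and 12122 ± 3239 TPM), selenoprotein P (SELENOP, 5524 ± 1074 and 6034 ± 956 TPM) and RBP4 (3619 ± 284 and 3237 ± 576 TPM) had limma adjusted p of 0.536, 0.748 and 0.604. MANF, a secreted protein of the stressed endoplasmic reticulum, stood at 50.6 ± 20.4 and 84.6 ± 42.2 TPM.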

How the data were processed

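Liver RNA of 8 lambs was selected for poly(A) and sequenced as paired reads, per the labels' protocols. Named in the submitters' processing notes are bcl2fastq 1.8.4 and DESeq2 1.12.4. The aligner, counter, strand setting and genome build were not given in the sources used here. The authors deposited TPM values per lamb with the gene length used, per the file headers. The deposited table also holds the authors' DESeq2 comparison: the mean of normalized counts, a signal scaled by size factors, log2 fold changes with SE, a Wald score and the p-value, raw and adjusted. Its direction, RES over ADL, was checked against TPM means. TPM times length, divided by the smallest product of each library, gave whole reads for 100% of values within a tolerance of 1e-06.

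Genes averaging 1 TPM or more were tested on log2(TPM + 1) with limma 3.58.1 (eBayes with trend) under R 4.3.3; p-values were adjusted by Benjamini-Hochberg over the 13437 genes, with a threshold of 0.05. Fold intervals are on the TPM + 1 scale, which understates changes of low genes. Single genes were also tested by exact permutation (Python 3.11.15). The fit was tested on simulated data. No pair of lambs of 1 group agreed within counting noise. Samples were grouped by title. The members and the lists were chosen with earlier results of these data known.

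Of each list the 4 genes with the smallest limma p are described, together with a set of named ligands, receptors and partners; APOA5, CEBPB, DOCK6, TIE1 and the relation of IGFBP1 to the members were chosen after their values were seen. CD209, CD163 and GZMB were not matched to a row and are not analysed here. The name CHEMERIN was not matched either, but its gene was matched as RARRES2, so its list counts it under both names. Alternatives were pseudocounts of 0.1 and 5, no minimum level, a minimum of 5 TPM, quantile normalization, size factors (also with the lamb number as a block, added after seeing the data), the block alone, array weights, robust eBayes, leaving out single lambs, and limma's voom on the recovered reads. A few listed genes are not reported here.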

Additional observations from a re-analysis of the deposited data

Results flagged for a closer look

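Within groups of 4 lambs, 112 sets of values of the genes described were checked for a single lamb far from the rest, by Dixon's criterion, which chance meets in about 1 of 20 sets of 4. None of the 18 sets of the 9 regulators met it, and 4 sets of related genes did. INHBB stood at 1.44 TPM in ADL lamb 2, against 0.234 to 0.347 TPM in the other ADL lambs. PCSK5 stood at 1.97 TPM in ADL lamb 2, against 1.46 to 1.53 TPM in the others. APOM stood at 137 TPM in ADL lamb 1, against 114 to 117 TPM in the others. GHSR stood at 0.236 TPM in RES lamb 3, a level of a few reads, against 0.113 to 0.134 TPM in the others.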

How the results depend on the processing

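No member was called in any of the 19 alternatives. Differences of ANGPTL8, INHBA, INHBC, INHBE and LECT2 kept their direction in all that included them, and the lists had 0 calls throughout. Size factors, with or without the replicate block, turned LEAP2 to -0.023 (exact permutation p = 0.714 with size factors). Over all genes limma called 1 gene without a minimum level (LOC101120736) and 0 to 1 with lambs left out (RGS6 without ADL lamb 1). At a minimum of 5 TPM, INHBA, FST and GDF15 were not tested. Unadjusted p under 0.05 numbered 1594, or 1028 with size factors, 1014 with quantile normalization and 935 without ADL lamb 3. With each lamb left out in turn, differences ran from -0.41 to 0.85 for FGF21, -0.093 to 0.37 for FST, -0.24 to 0.19 for GDF15, 0.33 to 0.96 for ANGPTL8, 0.005 to 0.70 for INHBA, 0.27 to 0.83 for INHBC, 0.25 to 1.08 for INHBE, 0.021 to 0.15 for LEAP2 and 0.12 to 0.31 for LECT2. The exact permutation p then ran from 0.371 to 1 for FGF21, 0.400 to 0.971 for FST and 0.571 to 0.943 for GDF15. On the log2 scale the exact permutation p of FGF21 was 0.771, with the sign opposite to that of mean TPM. LECT2's spread moved to percentile 62.4 with size factors. The cause of these shifts was not tested. Deviations of same-numbered lambs from their group means correlated at 0.15, -0.12, 0.055 and 0.058 over the tested genes. Lambs with different numbers were not compared, so these values do not decide whether the numbers pair the lambs. The replicate block left 0 members called, with 2 at an unadjusted p under 0.05 (ANGPTL8 and INHBE), 1 of them (ANGPTL8) after size factors. Limma's adjusted p was 0.440 for both with the block and 0.633 for ANGPTL8 after size factors. In the main fit 11.9% of all tested genes had such an unadjusted p. Without ADL lamb 3, LECT2 had an unadjusted limma p of 0.033 (difference 0.31, adjusted p = 0.685, exact permutation p = 0.057). Counting noise was largest for FST, GDF15 and FGF21, though below their coefficients of variation measured within groups.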

Other observations

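The genes whose levels over the 8 lambs were most like those of each regulator, by Pearson's r of log2(TPM + 1) among 13436 genes, are given as a description, since the best of so many genes over 8 lambs has a high r whatever the gene. For INHBC they were PHF19, a chromatin protein gene (r = 0.99), and LBR, the lamin B receptor (r = 0.98). For INHBE they were E2F4, a cell cycle repressor (r = 0.98), and LGALS2, a galectin gene (r = 0.98). FST was followed by ABCA6 (r = 0.97) and DSG2 (r = 0.95), GDF15 by TMED4 and INPP1 (both r = 0.96), and LEAP2 by STAT5B, a mediator of growth hormone signalling, and PIF1 (both r = 0.95). For FGF21 they were LOC101111446 (r = 0.97) and TCEAL1 (r = 0.96), with r of 0.84 and 0.75 without the 2 lambs farthest out in FGF21. ANGPTL8 was followed by LOC105606113 and LOC105604230 (both r = 0.99), INHBA by LOC106990453 (r = 0.98) and LOC101111990 (r = 0.97), and LECT2 by LOC101115325 (r = 0.95) and LOC105606029 (r = 0.93).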
